A study of Mus musculus with 24 samples.

Results

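Mitosis is driven by a set of genes that are read mainly in G2 and M phase, and 55 of them form the subject here: the kinases and cyclins of mitotic entry, spindle checkpoint and anaphase genes, and the centromere, spindle, cytokinesis and chromosome condensation genes. They were named as a list of known G2/M genes and not by their values, though with earlier results of these data known. A gene was measured where a probe annotated to it gave a detection p under 0.05 on 4 or more of the 24 arrays, and its probe with the highest mean stood for it. Of the 55 genes, 40 were measured, among 8820 genes in all.

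The arrays came from thymocytes of C57BL/6J mice with the Il7r+/+ genotype, which all groups share. Lin-cKit- thymocytes were sorted into DN3a (CD25+, low for CD71 and for forward scatter, a measure of cell size), DN3b (CD25+, high for both) and DN4 cells (CD25-, high for both). These are successive stages of immature T cells around β-selection, the checkpoint that lets only cells with a working T cell receptor β chain multiply. After 1 h of rest, cells of each subset were cultured for 3 h with IL7 (interleukin 7, a cytokine of early T cells) at 10 ng/ml or left untreated. The 4 independent sorts each gave all 6 cultures, so that each group held 4 arrays and IL7 and untreated cultures are matched by sort. Because CD71 (the transferrin receptor, high on growing cells) and cell size were gates, the stage and the growth state used to sort it cannot be told apart.

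As background, cyclin-dependent kinase 1 with its cyclins A and B starts mitosis, Polo-like and Aurora kinases build the spindle, and the anaphase-promoting complex ends mitosis by having securin and cyclins destroyed. The transcripts build up in G2 through B-MYB, FOXM1 and the MuvB complex, which reach many of these promoters through a short element called the cell cycle genes homology region (CHR), often beside CCAAT boxes bound by NF-Y. In resting cells the DREAM complex holds the same promoters off. Thymocytes that pass β-selection are known to divide rapidly as large DN3b and DN4 cells, while DN3a cells are mostly small and at rest.

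Of the 15 genes not measured, 7 had no probe named for them (Ccnb1, Mki67, Aurkb, Cenpf, Kifc1, Racgap1 and Smc4) and 8 had a probe detected on 0 arrays (Ccnb2, Bub1, Cenpe, Nuf2, Kif20a, Hmmr, Ect2 and Smc2). Nothing is said of their expression here. Among the 40 measured genes, 30 were detected on all 24 arrays and 34 on at least 4 of the 8 DN3a arrays. The other 6 (Ccna2, Cdc25c, Melk, Ttk, Ube2c and Pttg1) met the detection rule mainly or wholly through DN3b and DN4 arrays, so that a difference from DN3a was partly set by the rule for them. Ttk and Pttg1 came closest to missing it, with detection on 6 and 8 arrays.

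Thymocyte identity was checked first: 10 of 12 thymocyte markers had a probe and all 10 were detected. Of 4 markers of the later CD4+CD8+ stage with a probe, Cd4 and Cd8a were detected on 0 arrays and Cd8b1 and Cd1d1 on all 24. Markers of other cells differed between sorts. The summed erythroid signal (log2) was 9.04 to 10.60 in sorts 1 and 3 and 7.32 to 7.47 in sorts 2 and 4 across all groups. This sum rests on few genes. Of 9 erythroid markers 6 had a probe, of which Alas2, Car2 and Hbb-bt were detected on 0 arrays. Klf1 was detected on 4 arrays, and Hba-a1 and Epor on 12 each. The summed granulocyte signal of DN4 cells was 12.86 to 13.11 in sorts 2 and 3 against 7.61 to 8.75 in sorts 1 and 4. Arrays of one group correlated at 0.978 to 0.993, and raw median intensities were 93.3 to 119.8. The number of arrays per group, 4, limits the precision of every value.

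The untreated cultures compare the stages themselves. Mitosis genes were far higher in the large-cell subsets: 39 of the 40 measured genes rose in DN3b cells over DN3a cells and 39 rose in DN4 cells over DN3a cells (limma, adjusted p under 0.05 over all 8820 genes). Among all genes tested, 24.9% rose and 31% fell in DN3b cells (55.9% in all), and 26.8% rose and 32.4% fell in DN4 cells (59.2% in all). The median change of the 40 genes was 3.00 on the log2 scale in both, an 8.01-fold rise, against medians of -0.03 and -0.02 for all genes. Both comparisons share the untreated DN3a arrays. Over the 34 genes detected in DN3a cells, all 34 rose in both, with medians of 3.17 and 3.18. The groups did not overlap on any array for 39 of the 40 genes in either comparison, where 19.7% and 20.2% of all genes were higher without overlap and 25.4% and 26.4% lower.

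Kif18b, a kinesin that trims microtubule ends, had the largest rise of all 8820 genes between DN3a and DN3b cells, followed by Kif2c, a microtubule-depolymerising kinesin, and Cdc25c, the phosphatase that activates Cdk1. The Cdc25c probe met the detection rule through DN3b and DN4 arrays, so its place rests on a DN3a level mostly at background. Of the 10 genes with the largest rise in DN3b cells, 8 were among the 40, and 31 of the largest 100 were. In DN4 cells over DN3a cells they held 6 of the largest 10 and 28 of the largest 100.

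The log2 signal of Kif18b in sorts 1 to 4 was 7.64, 6.74, 6.10 and 6.70 in DN3a cells, 11.17, 11.02, 11.10 and 11.02 in DN3b cells and 11.14, 10.92, 11.18 and 11.16 in DN4 cells. Every DN3b and DN4 array stood far above every DN3a array, and DN3b and DN4 arrays overlapped. The rise was 4.28 ± 0.21 (SE) in DN3b cells, 19.4-fold (adjusted p = 1.418e-07), and 4.31 ± 0.21 in DN4 cells, 19.8-fold (adjusted p = 8.675e-08).

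Kif2c gave 7.90, 7.18, 6.29 and 7.30 in DN3a cells, 11.51, 11.35, 11.40 and 11.36 in DN3b cells and 11.46, 11.41, 11.53 and 11.57 in DN4 cells. It rose by 4.24 ± 0.22 in DN3b cells (18.9-fold, adjusted p = 1.932e-07) and by 4.33 ± 0.22 in DN4 cells (20.1-fold, adjusted p = 1.149e-07). As for Kif18b, the highest DN3a array was sort 1 and the lowest sort 3, while DN3b and DN4 arrays lay within a narrow band.

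The probe of Cdc25c gave 5.98, 5.09, 4.58 and 4.94 in DN3a cells and was detected in sort 1 alone of these 4, while some probe of the gene was detected on 2 of the 4. It gave 9.39, 9.03, 9.31 and 9.20 in DN3b cells and 9.52, 9.18, 9.55 and 9.45 in DN4 cells. The rises were 4.09 ± 0.20 and 4.28 ± 0.20 (adjusted p = 1.251e-07 and 5.49e-08), and rest on a DN3a level that its probe measured on 1 of 4 arrays. The other Cdc25c probe gave 3.71 and 3.99. Depdc1b, listed among the cytokinesis genes, moved much the same way: 7.13, 5.90, 5.72 and 6.41 in DN3a cells, 10.51, 10.39, 10.37 and 10.11 in DN3b cells and 10.61, 10.55, 10.68 and 10.57 in DN4 cells. Its rises were 4.06 ± 0.21 and 4.31 ± 0.21.

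**Figure D1:**
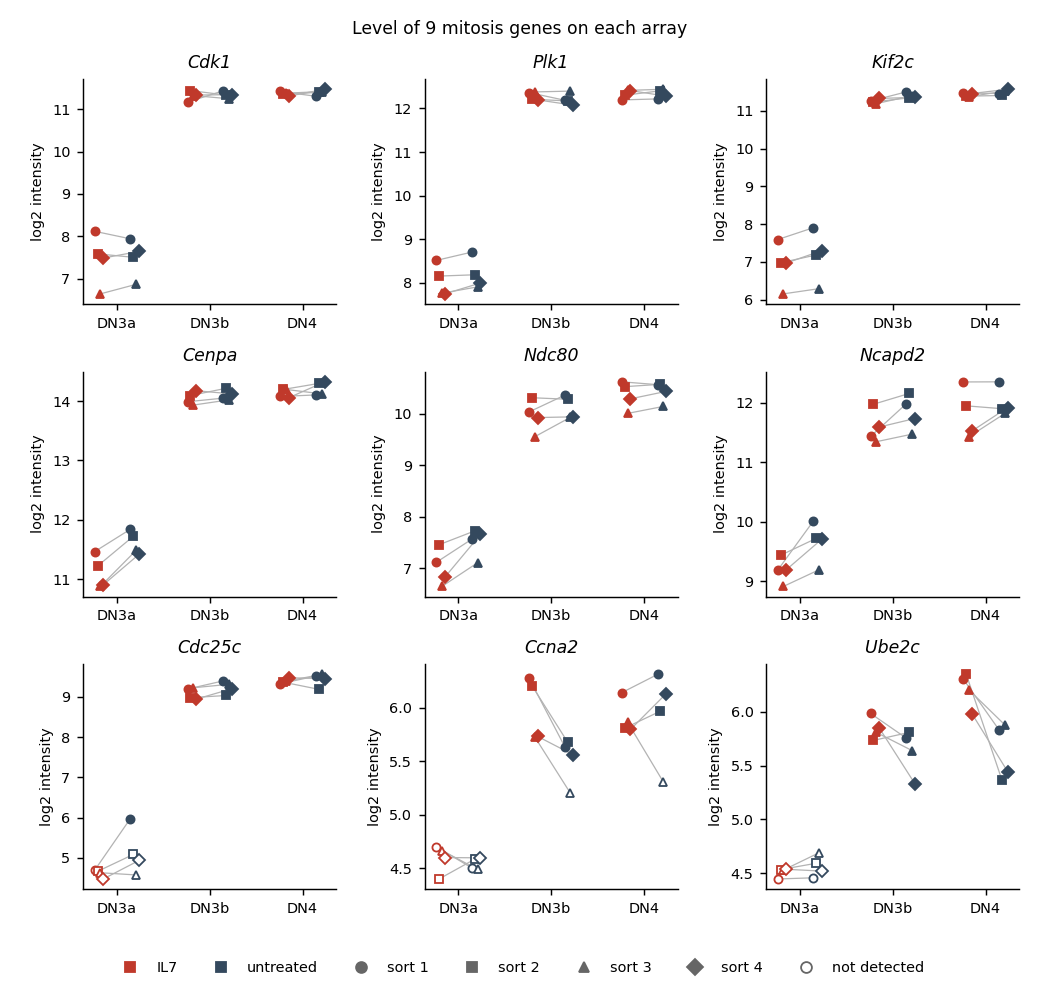
Normalised log2 intensity of 9 mitosis genes on each of the 24 arrays, with IL7 cultures in red to the left of untreated cultures in a dark tone for each subset, one symbol per sort, grey lines joining cultures of the same sort, and open symbols where the probe was not detected. All 9 genes are lower on every DN3a array than on every DN3b or DN4 array, and Cenpa and Ndc80 are lower with IL7 than without it in all 4 sorts of DN3a cells.

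By role, the mitotic entry genes rose in 7 of 7 measured cases in both comparisons. Cdk1, the kinase that starts mitosis, was at 7.94, 7.50, 6.86 and 7.64 in DN3a cells, 11.44, 11.34, 11.25 and 11.35 in DN3b cells and 11.31, 11.40, 11.42 and 11.47 in DN4 cells. It rose 14.5-fold in DN3b cells (3.86 ± 0.16, adjusted p = 4.988e-08) and 15.1-fold in DN4 cells (3.91 ± 0.16, adjusted p = 2.632e-08). Plk1, the Polo-like kinase of spindle assembly, gave 8.70, 8.18, 7.90 and 7.99 in DN3a cells, 12.19, 12.17, 12.40 and 12.08 in DN3b cells and 12.22, 12.41, 12.44 and 12.28 in DN4 cells. Its rise was 16.1-fold in DN3b cells and 17.6-fold in DN4 cells. Aurka, an Aurora kinase of the spindle poles, rose 8.94-fold and 9.30-fold, and Cdc25b, a phosphatase that acts early in mitotic entry, 5.46-fold and 5.73-fold. Melk, a mitotic kinase, rose 5.26-fold and 6.27-fold.

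Ccna2, which encodes cyclin A, was not above background on any untreated DN3a array. Its rise there is only a bound, at least 1.25-fold in DN3b cells and at least 1.66-fold in DN4 cells (adjusted p = 0.0001406 and 9.691e-06), set as the mean of the brighter group over the lowest signal that counts as detected. The same holds for Ttk, a spindle checkpoint kinase, at least 1.03-fold and at least 1.01-fold higher, and for Ube2c, the ubiquitin-conjugating enzyme of the anaphase-promoting complex, at least 1.35-fold higher in both.

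Foxm1, the forkhead factor that switches on many G2/M genes, gave 7.40, 6.76, 6.40 and 6.71 in DN3a cells, 10.25, 10.08, 10.41 and 10.31 in DN3b cells and 10.28, 10.15, 10.39 and 10.30 in DN4 cells. It rose 10.9-fold (3.45 ± 0.16, adjusted p = 1.166e-07) and 11.0-fold (3.46 ± 0.16, adjusted p = 6.66e-08), with no overlap between DN3a arrays and the rest. All 4 measured spindle checkpoint genes rose in both comparisons. Bub1b, the checkpoint pseudokinase BubR1, rose 9.06-fold and 8.79-fold, and Mad2l1, the checkpoint inhibitor of Cdc20, 6.45-fold and 6.69-fold. Bub3, which brings Bub proteins to kinetochores, rose by less, 1.84-fold and 1.95-fold.

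Of the 6 anaphase and mitotic exit genes, 5 rose in both comparisons. Cdca3, a partner in the destruction of mitosis inhibitors, rose 14.5-fold and 16.4-fold, and Espl1, the protease separase, 13.1-fold and 14.2-fold. Cdc20, the activator of the anaphase-promoting complex, rose 10.2-fold and 11.3-fold, and Cdca5, the cohesin protector sororin, 6.87-fold and 6.78-fold. Pttg1, the separase inhibitor securin, was the exception. It was named for this after its values were seen. Its probe gave 4.75, 5.32, 5.43 and 5.47 in DN3a cells, 4.94, 4.94, 5.58 and 6.22 in DN3b cells and 4.93, 5.51, 4.71 and 5.36 in DN4 cells. These groups overlapped, and the differences of 0.18 ± 0.22 and -0.11 ± 0.22 missed the threshold (adjusted p = 0.5299 and 0.6847), with detection on 3 of 4 DN3a, 2 of 4 DN3b and 2 of 4 DN4 arrays.

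All 3 measured chromosomal passenger genes rose. Birc5, the passenger protein survivin, gave 9.55, 9.01, 8.51 and 9.00 in DN3a cells, 12.79, 12.92, 12.96 and 12.77 in DN3b cells and 12.77, 12.89, 13.05 and 13.05 in DN4 cells. That is a 14.3-fold and a 15.2-fold rise (adjusted p = 1.095e-07 and 5.552e-08). Cdca8 (borealin) rose 12.4-fold and 13.0-fold, and Incenp, the scaffold of the complex, 5.91-fold and 5.76-fold. The 4 measured centromere and kinetochore genes rose too, Spc25 of the Ndc80 complex 12.6-fold and 13.3-fold and Spc24 of the same complex 4.19-fold and 4.93-fold, with Ndc80 and Cenpa between them.

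All 9 measured kinesin and spindle genes rose, from 5.18-fold for Prc1, which bundles the midzone, to 19.4-fold for Kif18b in DN3b cells. In DN4 cells the range was 4.96-fold for Prc1 to 20.1-fold for Kif2c. Kif11, the kinesin that pushes spindle poles apart, rose 13.6-fold and 14.1-fold, and Tpx2, the spindle partner of Aurora A, 10.0-fold and 10.3-fold. Of the cytokinesis genes, Anln, which encodes the ring protein anillin, rose 7.86-fold and 7.56-fold beside Depdc1b. All 4 measured chromosome structure genes rose: Top2a, the topoisomerase that untangles sister chromatids, gave 10.17, 9.69, 9.22 and 9.83 in DN3a cells, 12.66, 12.90, 12.57 and 12.89 in DN3b cells and 12.73, 12.64, 12.86 and 12.78 in DN4 cells. Its rise was 8.17-fold and 8.15-fold, and Ncaph, a condensin subunit, rose 5.72-fold and 5.75-fold.

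**Figure D2:**
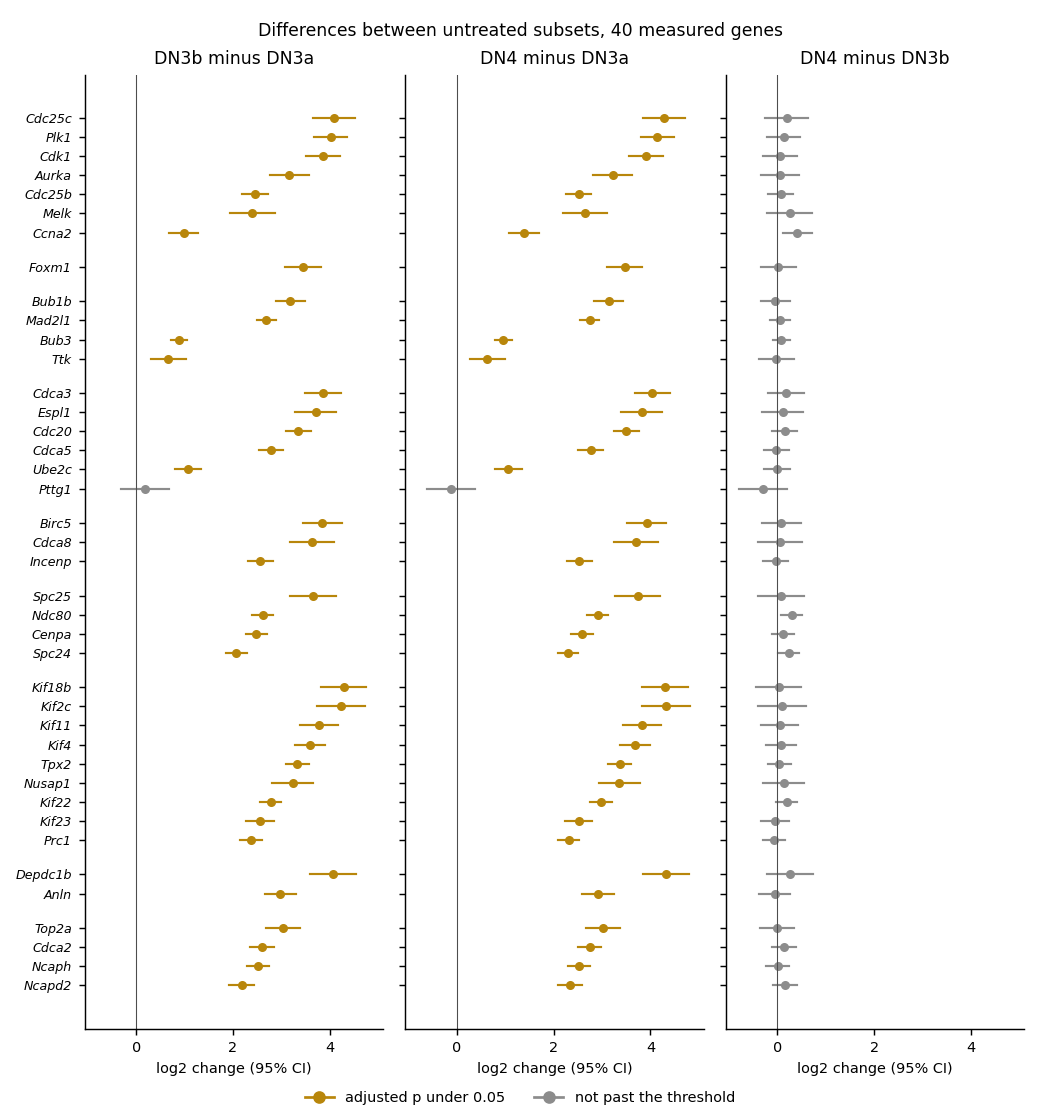
Log2 change with 95% confidence interval for each of the 40 measured genes, grouped by role, in untreated DN3b minus DN3a, DN4 minus DN3a and DN4 minus DN3b cultures (4 arrays per group). Every gene but Pttg1 lies above 0 and past the threshold in the first and second panels, and none passes it in the third.

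Other cell cycle lists were measured on the same arrays, in DN3b over DN3a cells, where 24.9% of all genes rose and 31% fell. Of 41 measured further mitosis genes, 38 rose and 0 fell, with a median of 2.16, led by Kif15, a spindle kinesin (3.63), Sgo1, the guardian of centromeric cohesin (3.53), Aspm, a spindle pole protein (3.44), and Spag5, the spindle protein astrin (3.41). Of 32 G1/S and DNA replication genes, 31 rose and 1 fell, with a median of 1.58, led by Mcm10, an initiation factor (3.19), Cdc45, part of the replicative helicase (2.82), Rrm2, a ribonucleotide reductase subunit (2.78), and Tk1, thymidine kinase (2.73). The 1 that fell was Prim2, the large primase subunit (-0.39).

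The machinery that acts on these genes or their products was measured too. Of 12 core subunits of the anaphase-promoting complex, 6 rose and 1 fell in DN3b cells, with a median of 0.26, among them Anapc15 (1.72), Cdc27 (0.93) and Anapc7 (0.52), while Anapc16 fell (-0.55). Of 12 MuvB and DREAM genes, 6 rose and 2 fell, with a median of 0.44. Mybl2, which encodes B-MYB, rose by 2.12, Rbl1, the pocket protein p107, by 1.66, Lin54, the MuvB subunit that binds the CHR, by 1.10 and Nfyb, an NF-Y subunit, by 0.99, and E2f4 and E2f5, the E2F proteins of DREAM, fell (-0.57 and -0.41). In DN4 over DN3a cells the same lists gave 38 of 41, 31 of 32, 7 of 12 and 6 of 12 genes higher, where 26.8% of all genes were.

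Markers of other cells also differed between the stages. Summed NK and gamma-delta markers were at 11.04 to 11.32 in untreated DN3a cells, 8.44 to 9.12 in DN3b cells and 7.58 to 7.95 in DN4 cells (log2; 6 of 7 with a probe, Ncr1 and Klrd1 on 0 arrays). Summed B cell markers were at 10.26 to 10.73 in DN3a, 9.09 to 9.46 in DN3b and 8.89 to 9.05 in DN4 cells (5 of 6 with a probe, Cd79a and Pax5 on 0 arrays). Summed CD4+CD8+ stage markers were at 11.58 to 11.90 in untreated DN3a, 12.42 to 12.62 in DN3b and 13.88 to 14.14 in DN4 cells. Of the 2 tested, 1 was higher and 1 lower in both DN3b and DN4 cells than in DN3a cells. The part of all these markers in the result was not tested. Sorts 2 and 3 were left out to remove the DN4 arrays with high granulocyte signal. Then 39 and 38 of the 40 genes rose in DN3b and DN4 cells over DN3a cells, where 1581 and 1795 of all 8820 did. With sorts 1 and 3 left out, those with high summed erythroid signal, 38 rose in each, where 1693 and 1931 of all genes did. In bulk RNA, fewer cycling cells and less of a transcript per cycling cell cannot be told apart, and an equal input of 250 ng of RNA makes each value relative to total RNA.

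Because these genes rose together, their promoters were searched for the G2/M elements, over 250 bases before to 50 bases after each RefSeq gene start (GRCm38.p6). The CHR was taken as TTTGAA or TTCGAA on both strands (TTCAAA is TTTGAA on the other strand), the CCAAT box as CCAAT or ATTGG, and an E2F-type site as TTCCCGC or TTGGCGC on both strands. CCAAT and ATTGG may overlap each other, and were counted each time. Promoters were found for 44 of the 55 genes, 47 promoters in all. Of these, 80.9% held a CHR, against 19.2% of all 32851 promoters, 14.3% of the 9301 promoters of genes tested and 17.6% of the 34 promoters of G1/S genes. A CCAAT box stood in 76.6%, against 37.4% of all promoters and 55.9% of G1/S promoters, and both elements in 72.3%, against 7.52% and 14.7%. The E2F-type site stood in 17.0% of the mitosis promoters and 11.8% of those of measured mitosis genes, against 47.1% of G1/S promoters, 11.4% of promoters of genes tested and 6.81% of all. The 51 CHR matches, counted in each promoter, began at a median of -9 bases from the start. A few genes had several promoters whose windows can overlap, so that the same element may be counted more than once. A match of letters is a description and no proof of binding.

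**Figure D3:**
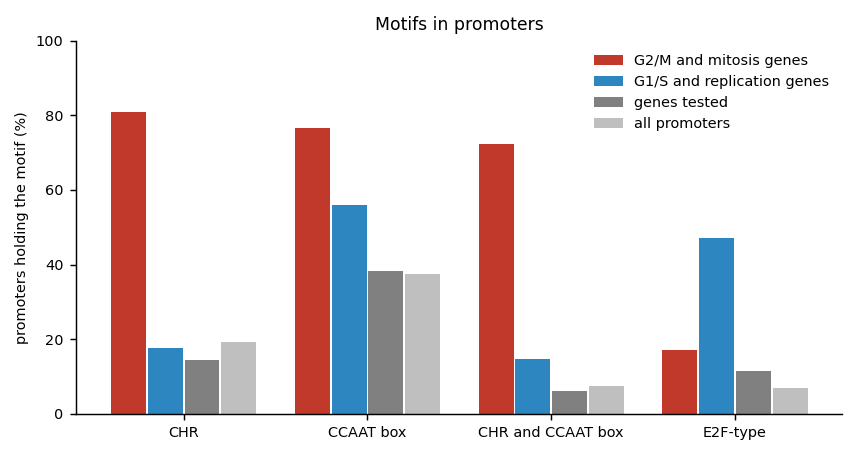
Share of promoters (250 bases before to 50 after the gene start) that hold each motif, for the G2/M and mitosis genes (47 promoters), the G1/S and replication genes (34), genes tested on the arrays (9301) and all promoters in the table (32851). The mitosis genes stand above the other sets for the CHR, the CCAAT box and both together, and the G1/S genes for the E2F-type site.

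These 10 promoters belong to genes with the largest changes in one of the comparisons or to the central kinases and Top2a, and are given 5′ to 3′ on the gene's strand with CHR and CCAAT letters in capitals (RefSeq, GRCm38.p6). The windows lie at chr4:117178723-117179022 (Kif2c, minus strand), chr11:102925075-102925374 (Kif18b, minus), chr10:69352863-69353162 (Cdk1, minus), chr7:122159185-122159484 (Plk1, plus), chr11:99024140-99024439 (Top2a, minus), chr11:117848987-117849286 (Birc5, plus), chr5:30666636-30666935 (Cenpa, plus), chr17:71526808-71527107 (Ndc80, minus), chr6:125191537-125191836 (Ncapd2, minus) and chr2:164769679-164769978 (Ube2c, plus).
Kif2c: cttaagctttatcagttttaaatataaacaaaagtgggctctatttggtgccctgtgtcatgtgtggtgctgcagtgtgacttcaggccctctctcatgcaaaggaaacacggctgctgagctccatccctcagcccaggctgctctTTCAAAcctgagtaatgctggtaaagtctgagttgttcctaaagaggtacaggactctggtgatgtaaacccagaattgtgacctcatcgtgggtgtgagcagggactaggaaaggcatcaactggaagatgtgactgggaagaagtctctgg
Kif18b: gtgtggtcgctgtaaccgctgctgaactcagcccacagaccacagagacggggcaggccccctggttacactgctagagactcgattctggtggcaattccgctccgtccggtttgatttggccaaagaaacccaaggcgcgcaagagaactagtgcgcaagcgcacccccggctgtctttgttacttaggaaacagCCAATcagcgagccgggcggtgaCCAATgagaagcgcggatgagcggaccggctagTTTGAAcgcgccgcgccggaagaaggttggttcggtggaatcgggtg
Cdk1: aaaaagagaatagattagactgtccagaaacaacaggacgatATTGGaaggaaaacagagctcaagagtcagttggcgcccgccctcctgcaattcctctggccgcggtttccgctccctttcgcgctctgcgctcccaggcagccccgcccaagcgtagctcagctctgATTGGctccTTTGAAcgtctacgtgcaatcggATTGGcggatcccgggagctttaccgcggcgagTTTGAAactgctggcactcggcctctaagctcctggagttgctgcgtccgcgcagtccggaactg
Plk1: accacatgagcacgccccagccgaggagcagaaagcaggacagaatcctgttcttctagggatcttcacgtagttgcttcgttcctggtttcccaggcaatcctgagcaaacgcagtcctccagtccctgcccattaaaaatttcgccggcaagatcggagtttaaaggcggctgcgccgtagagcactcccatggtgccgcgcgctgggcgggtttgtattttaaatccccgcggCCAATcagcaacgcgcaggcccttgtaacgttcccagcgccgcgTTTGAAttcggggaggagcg
Top2a: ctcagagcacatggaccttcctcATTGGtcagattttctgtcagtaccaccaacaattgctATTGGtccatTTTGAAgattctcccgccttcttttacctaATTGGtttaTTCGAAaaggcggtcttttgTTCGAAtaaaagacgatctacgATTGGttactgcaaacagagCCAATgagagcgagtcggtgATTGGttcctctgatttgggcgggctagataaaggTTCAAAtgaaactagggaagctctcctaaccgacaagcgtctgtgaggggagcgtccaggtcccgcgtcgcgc
Birc5: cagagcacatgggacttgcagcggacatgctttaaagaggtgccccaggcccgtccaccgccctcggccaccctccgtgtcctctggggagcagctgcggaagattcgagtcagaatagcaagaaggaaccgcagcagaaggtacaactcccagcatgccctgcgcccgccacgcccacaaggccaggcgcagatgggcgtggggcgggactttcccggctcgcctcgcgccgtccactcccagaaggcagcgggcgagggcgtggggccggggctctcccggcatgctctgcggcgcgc
Cenpa: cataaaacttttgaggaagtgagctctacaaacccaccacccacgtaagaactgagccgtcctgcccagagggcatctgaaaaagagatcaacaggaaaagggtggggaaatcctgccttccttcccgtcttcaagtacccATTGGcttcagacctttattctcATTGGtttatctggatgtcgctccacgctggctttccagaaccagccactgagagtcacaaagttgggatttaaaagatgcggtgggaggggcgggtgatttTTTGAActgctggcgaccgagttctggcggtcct
Ndc80: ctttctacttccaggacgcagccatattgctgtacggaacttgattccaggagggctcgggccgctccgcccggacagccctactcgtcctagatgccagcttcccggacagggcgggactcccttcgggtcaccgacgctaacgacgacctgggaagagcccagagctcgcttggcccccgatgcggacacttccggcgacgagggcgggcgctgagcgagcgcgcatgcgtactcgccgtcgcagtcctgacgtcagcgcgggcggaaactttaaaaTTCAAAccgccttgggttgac
Ncapd2: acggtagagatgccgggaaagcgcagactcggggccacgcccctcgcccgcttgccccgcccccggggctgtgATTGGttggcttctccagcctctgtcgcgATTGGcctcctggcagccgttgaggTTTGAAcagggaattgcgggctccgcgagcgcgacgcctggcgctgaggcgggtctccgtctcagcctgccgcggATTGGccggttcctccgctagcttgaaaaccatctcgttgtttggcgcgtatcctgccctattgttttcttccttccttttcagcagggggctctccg
Ube2c: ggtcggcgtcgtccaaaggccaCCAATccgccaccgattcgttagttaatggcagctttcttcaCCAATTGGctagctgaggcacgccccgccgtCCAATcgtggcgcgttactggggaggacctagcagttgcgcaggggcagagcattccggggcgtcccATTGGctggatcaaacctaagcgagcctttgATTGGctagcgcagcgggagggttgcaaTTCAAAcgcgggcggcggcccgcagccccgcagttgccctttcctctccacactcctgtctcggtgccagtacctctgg
Cdk1, Plk1, Top2a, Kif18b, Cenpa, Ncapd2 and Ube2c hold both elements, Kif2c and Ndc80 a CHR alone, and Birc5 neither of these letters in this window. Top2a has 4 CHR and 6 CCAAT matches, and the single CHR of Kif18b, Cenpa and Plk1 begins 4, 17 and 31 bases after the start. Birc5, with neither, rose 14.3-fold in DN3b cells, beside Cdk1, with 2 CHR and 3 CCAAT matches, at 14.5-fold. How such matches relate to the size of a rise was not tested.

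DN4 cells were then set against DN3b cells. None of the 40 genes passed the threshold, against 4.02% of all genes, 1.45% higher and 2.57% lower. This test took its spread from all 12 untreated arrays, DN3a included. The median SD of the 40 genes was 0.34 in untreated DN3a cells, against 0.14 in DN3b and in DN4 cells. The intervals for these genes may therefore be wider than DN3b and DN4 arrays alone would give. By the same sharing, errors and intervals of the comparisons with DN3a cells may be narrower than the DN3a spread calls for. At an unadjusted p under 0.05, 3 of the 40 were higher in DN4 cells and 0 lower, where 645 and 906 of all 8820 genes were. The median change was 0.07, and all 40 confidence intervals lay within 1 log2 unit of 0, 28 of them within 0.5. Ccna2 had the largest difference, 0.41 ± 0.14 (95% interval 0.11 to 0.71, adjusted p = 0.1383), and Ndc80 the next, 0.30 ± 0.10 (interval 0.09 to 0.51, adjusted p = 0.1293). The groups did not overlap for 2 genes, both higher in DN4 cells, where 2.87% of all genes were higher and 4.14% lower without overlap. For Cdk1 the interval was -0.29 to 0.41 and for Plk1 -0.21 to 0.47. With quantile normalization and no background correction 1 gene passed, where 226 of all 8820 genes were higher and 332 lower. With the authors' deposited log2 values 1 gene passed too, where 231 and 335 were.

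The spread between sorts differed by stage. In untreated DN3a cells the median SD of the 40 genes over the 4 sorts was 0.34, against 0.18 for all genes, while in untreated DN3b cells it was 0.14, against 0.19. The mean level of the 40 genes was 7.92, 7.58, 7.21 and 7.55 in sorts 1 to 4 of untreated DN3a cells, 10.47, 10.46, 10.43 and 10.40 in DN3b cells and 10.51, 10.56, 10.51 and 10.50 in DN4 cells. Sort 1 was the highest DN3a sort for 31 of the 40 genes and sort 3 the lowest for 30. In IL7-treated DN3a cells sort 1 was highest for 32 genes and sort 3 was lowest for 29.

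Other measures differed between the same DN3a sorts. The mean of the 32 G1/S genes in untreated DN3a cells was 8.87, 8.71, 8.47 and 8.78 in sorts 1 to 4. Tfrc, which encodes the gating marker CD71, gave 11.39, 11.10, 10.78 and 11.35, and Il2ra, which encodes CD25, 8.90, 9.17, 9.55 and 9.06. Sort 3 was lowest in mitosis genes, G1/S genes and Tfrc and highest in Il2ra. With IL7, the lowest Tfrc of DN3a cells was in sort 2 (12.04), with sort 3 at 12.17. Between stages Tfrc did not follow the mitosis genes: it gave 11.39, 11.10, 11.21 and 11.12 in untreated DN4 cells, within its DN3a range. The rise in DN3b over DN3a cells had a median over the 40 genes of 2.59 in sort 1, 2.95 in sort 2, 3.40 in sort 3 and 3.06 in sort 4. The summed erythroid signal of these DN3a arrays was 10.60, 7.41, 10.59 and 7.41, so that both the highest and the lowest sort had a high one. Their part in the spread was not tested.

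**Figure D4:**
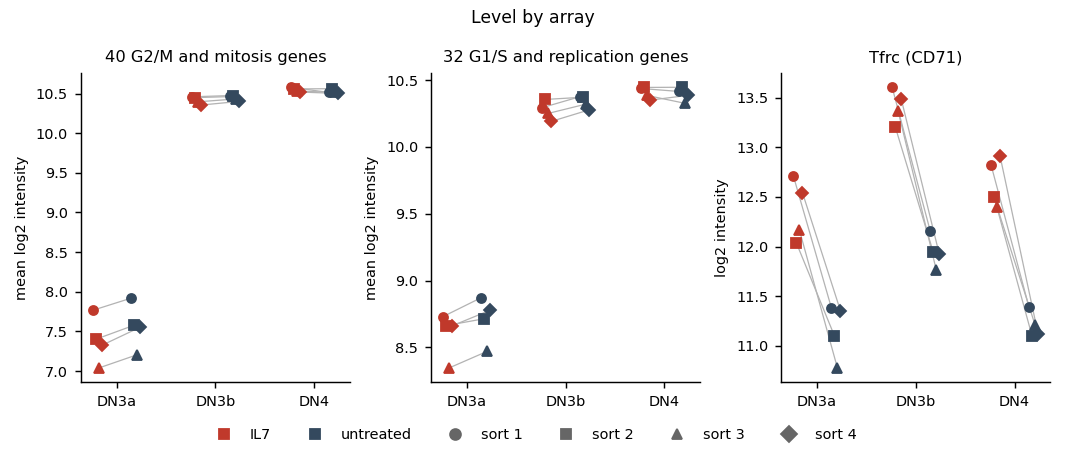
Mean log2 intensity of the 40 measured G2/M and mitosis genes and of 32 G1/S and replication genes, and log2 intensity of Tfrc, on each array, with IL7 cultures in red to the left of untreated cultures in a dark tone, one symbol per sort and lines joining a sort's cultures. The DN3a sorts are spread over 0.71 log2 units without IL7 and over 0.06 to 0.10 in the DN3b and DN4 groups, while Tfrc is higher with IL7 in every sort of every subset.

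IL7 was then compared with no treatment within each subset, over 12 pairs of cultures of the same sort. In DN3a cells 13 of the 40 mitosis genes fell and none rose, 32.5% against 11.5% of all genes lower and 9.44% higher (21% called in either direction). Of the 34 genes detected in DN3a cells, 12 fell, with a median of -0.17. These falls were small, from 1.17-fold for Top2a to 1.42-fold for Ndc80, and Cdc25c, the other of the 13, was mostly at background there. The median of all 40 was -0.16, against -0.03 for all genes. Below 0 lay 34 of the 40, where 4932 of all 8820 genes did. Of the 40, 20 were lower with IL7 in all 4 sorts. The groups overlapped for all 40 genes, where 7.36% of all genes were lower and 7.17% higher without overlap. The mean of the 40 genes was 7.77, 7.40, 7.04 and 7.33 with IL7, against 7.92, 7.58, 7.21 and 7.55 without it, lower by 0.15 to 0.23 in each sort.

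Cenpa, the histone H3 variant that marks centromeres, gave 11.47, 11.22, 10.88 and 10.91 with IL7 in DN3a sorts 1 to 4, against 11.84, 11.72, 11.49 and 11.42 without it. Each sort was lower with IL7, though the highest IL7 array lay above the lowest untreated array. The change was -0.50 ± 0.07 (SE, adjusted p = 0.0002234), 1.41-fold lower. Ndc80, the kinetochore protein that holds microtubules, gave 7.11, 7.46, 6.65 and 6.83 with IL7, against 7.57, 7.72, 7.11 and 7.66 without it. It was lower in all 4 sorts, by most in sort 4, and changed by -0.50 ± 0.10 (adjusted p = 0.002166).

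Ncapd2, a condensin subunit, gave 9.19, 9.44, 8.91 and 9.19 with IL7, against 10.01, 9.72, 9.19 and 9.71 without it. It changed by -0.48 ± 0.11 (adjusted p = 0.008327) and was lower in all 4 sorts. Another of its probes fell by 0.45 (adjusted p = 0.01118), and another, dimmer one did not pass (-0.05). Cdc25c had the largest estimate, -0.53 ± 0.15 (adjusted p = 0.02625), but lay at background: its probe gave 4.70, 4.67, 4.63 and 4.48 with IL7, detected on 0 of 4 arrays, against 5.98, 5.09, 4.58 and 4.94 without it, detected on 1 of 4. Sort 1 moved by -1.28, sort 3 by 0.05, and the other probe of Cdc25c by -0.10 (adjusted p = 0.642).

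The other genes that fell with IL7 in DN3a cells came from most roles. Nusap1, a spindle protein (-0.40 ± 0.07, adjusted p = 0.001383), Kif23, a midzone kinesin (-0.32), Kif2c (-0.25) and Prc1 (-0.24) are spindle genes, 4 of 9 in that role. Cdca2, a chromatin phosphatase partner (-0.37), Top2a (-0.23) and Ncapd2 made 3 of 4 chromosome structure genes. Cdca5 (-0.34), Cdc25b (-0.31) and Anln (-0.30) completed the 13. Of these, the 2 dimmer probes of Nusap1 (0.00 and 0.10) and a dimmer probe of Anln (0.01) had the opposite sign. Kif18b (-0.10) and Spc25 (-0.33) did not pass with the probe used, and another probe of each did (-0.48 and -0.52).

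The central kinases and Foxm1 did not pass the threshold. Cdk1 gave 8.12, 7.58, 6.64 and 7.49 with IL7, against 7.94, 7.50, 6.86 and 7.64 without it, higher in 2 sorts and lower in 2 (-0.03 ± 0.09, interval -0.22 to 0.15, adjusted p = 0.8426). Plk1 gave 8.51, 8.15, 7.76 and 7.74, against 8.70, 8.18, 7.90 and 7.99, lower in each sort (-0.15 ± 0.06, adjusted p = 0.1123). Birc5 gave 9.63, 8.95, 8.48 and 8.74, against 9.55, 9.01, 8.51 and 9.00 (-0.07 ± 0.07, adjusted p = 0.5304). Foxm1, at -0.08 ± 0.10 (adjusted p = 0.6372), was lower in 3 sorts and higher in 1. All 4 spindle checkpoint genes and all 3 chromosomal passenger genes missed the threshold, and the highest value was that of Bub3 (0.22, adjusted p = 0.06614).

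**Figure D5:**
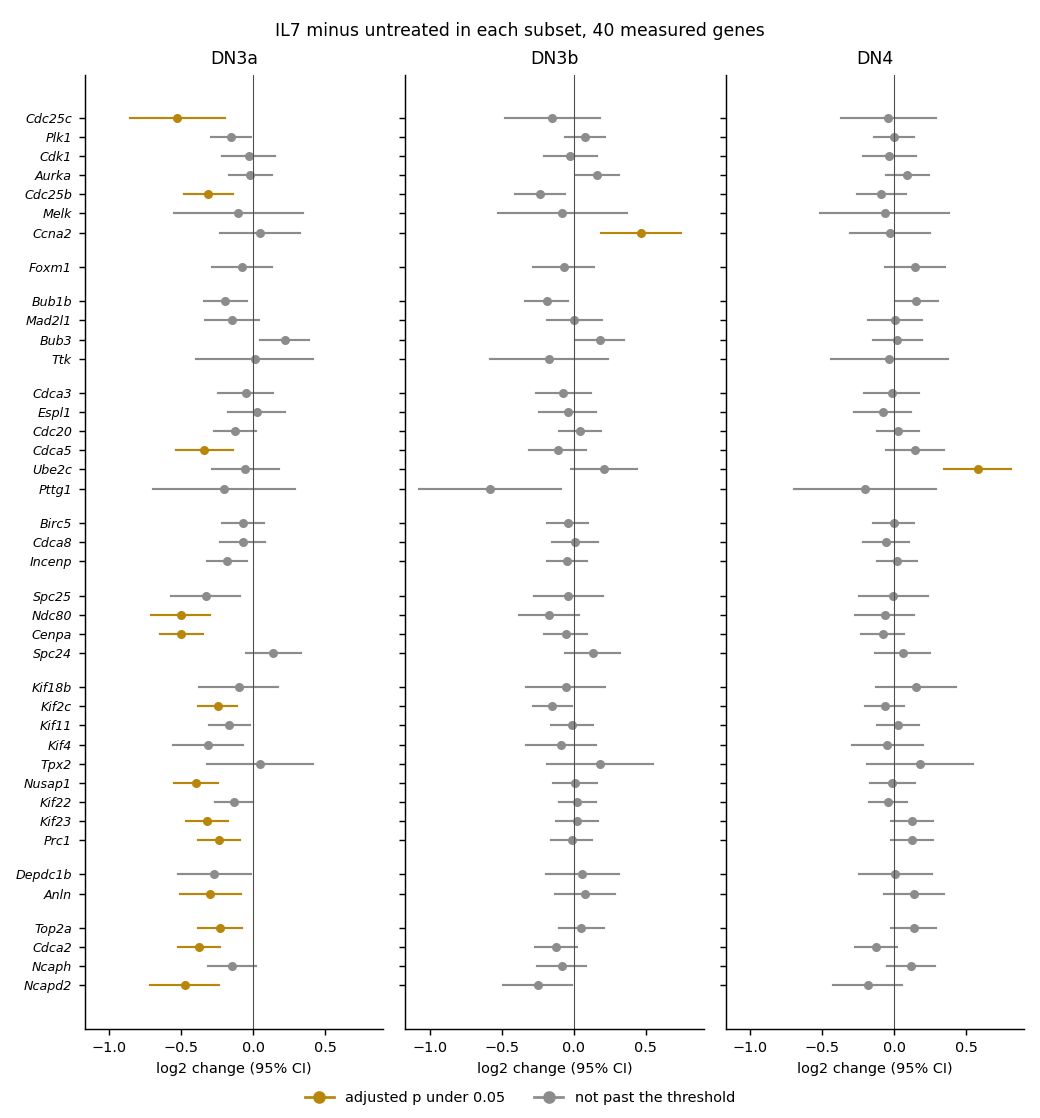
Log2 change (IL7 minus untreated) with 95% confidence interval for each of the 40 measured genes, grouped by role, in DN3a, DN3b and DN4 cells (4 pairs each). In DN3a cells 13 genes lie below 0 past the threshold, while in DN3b cells Ccna2 and in DN4 cells Ube2c pass it above 0.

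The count of 13 depended on how the sorts entered. Leaving out sort 1, 2, 3 or 4 gave 9, 8, 8 and 5 genes lower, where 7.87%, 7.07%, 8.7% and 7.6% of all genes were lower. Without the pairing of cultures 2 genes were lower (5.03% of all genes), with each subset fitted alone 7 (8.89% of all genes), with sorts 1 and 3 left out 2 (3.3% of all genes), and with sorts 2 and 3 left out 1 (2.45% of all genes). With sorts left out, 31 to 36 of the 40 lay below 0. Dropping the pairing or fitting each subset alone leaves each estimate as it was, so their 34 below 0 is no separate check. Cenpa lost its call in 1 of 15 alternatives, Cdca2 in 2, Ndc80 and Kif23 in 3, and Nusap1 in 4, in 1 of which its sign turned. Ncapd2 lost it in 4, Cdca5 in 7, Cdc25c and Prc1 in 8, and Cdc25b, Kif2c, Anln and Top2a in 9. Of the 13 calls, 0 were kept in all alternatives.

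Related lists were set beside these values. In DN3a cells 7 of 41 further mitosis genes (17.1%) fell with IL7 and 0 rose (median -0.10), where 11.5% of all genes fell and 9.44% rose. Among those that fell were Spag5 (-0.58), Cenpk, a centromere protein (-0.50), Mad1l1, a checkpoint protein (-0.46), and Hjurp, the chaperone that loads Cenpa (-0.44). Of 32 G1/S genes, 5 fell (15.6%) and 1 rose (median -0.08). Prim2 (-0.59), Tk1 (-0.44), Pole, a replicative polymerase subunit (-0.41), and Pold1, another (-0.29), had the largest changes. Rbl1 (-0.37), Tfdp2, an E2F partner (-0.44), and Nfyb (-0.19) fell among 12 MuvB and DREAM genes, whose median was 0.02, and Anapc15 rose (0.48) among 12 anaphase-promoting complex genes. Differences between the lists were not tested. Of the promoters of the 13 genes, 11 of 12 in the table held a CHR, against 17 of 22 promoters of the other measured genes. The CCAAT box went the other way, in 7 of 12 against 17 of 22, as did both elements together, in 7 of 12 against 17 of 22. The E2F-type site stood in 2 of 12 and 2 of 22. These shares were not tested.

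Markers moved with IL7 too. Tfrc rose by 1.21 in DN3a, 1.47 in DN3b and 1.45 in DN4 cells (adjusted p = 3.089e-06, 7.548e-07 and 1.805e-06) and Il2ra by 0.74, 1.22 and 0.74. In DN3a cells summed NK and gamma-delta markers were at 11.54 to 12.00 with IL7 and 11.04 to 11.32 without it. Of the 3 tested, Nkg7, a granule protein gene, rose (0.78), Blk, a kinase gene, fell (-1.65) and Sox13 did not pass (0.22). Of 10 thymocyte markers, 4 fell and 1 rose, with a median of -0.20: Rag2 (-0.51), Gata3 (-0.46), Dntt (-0.41) and Bcl11b (-0.35) fell and Thy1 rose (0.50). These DN3a cells also had summed CD4+CD8+ stage markers at 10.93 to 11.38 with IL7 and 11.58 to 11.90 without it. Their part in the falls was not tested.

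In DN3b cells 1 of the 40 genes rose with IL7 and 0 fell, against 4.8% and 5.01% of all genes (9.81% in all). This was Ccna2, at 6.28, 6.21, 5.73 and 5.73 with IL7, against 5.64, 5.68, 5.20 and 5.56 without it (0.47 ± 0.13, adjusted p = 0.03571). It was higher with IL7 in all 4 sorts and the groups did not overlap, as for 1 gene higher and 2 lower of the 40, where 4.55% and 4.31% of all genes were. Its signal was low, detected on 4 of 4 arrays with IL7 and 3 of 4 without it, and the call was lost without sort 1 and without sort 2, and in 8 of 15 alternatives in all. The median of the 40 genes was -0.04, and 35 of 40 intervals lay within 0.5 of 0. Cdk1 gave 11.17, 11.44, 11.33 and 11.34 with IL7, against 11.44, 11.34, 11.25 and 11.35 without it.

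In DN4 cells 1 of the 40 genes rose and 0 fell, against 1.86% and 0.578% of all genes (2.44% in all). Ube2c, which attaches ubiquitin for the anaphase-promoting complex, gave 6.30, 6.35, 6.20 and 5.98 with IL7, against 5.83, 5.36, 5.88 and 5.44 without it. Every IL7 array stood above every untreated array (0.58 ± 0.11, 1.49-fold, adjusted p = 0.009656), the only such gene of the 40, where 2.14% of all genes were (1.38% lower without overlap). The call was lost without sort 1, 2 or 4. The median of the 40 genes was 0.00, and 36 of 40 intervals lay within 0.5 of 0. Plk1 gave 12.20, 12.30, 12.41 and 12.41 with IL7, against 12.22, 12.41, 12.44 and 12.28 without it. In both large-cell subsets 0 of 41 further mitosis genes passed in the limma fit. At an unadjusted p under 0.05, 2 of them were lower in DN3b cells, where 1037 of all 8820 genes were, and 0 in DN4 cells, where 499 were.

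The genes listed for description whatever their values did not pass the threshold for IL7 in either large-cell subset. Birc5 gave 12.73, 12.77, 12.91 and 12.85 with IL7, against 12.79, 12.92, 12.96 and 12.77 without it in DN3b cells (-0.04 ± 0.07, adjusted p = 0.8004, 95% interval -0.19 to 0.10), and 12.77, 12.92, 13.07 and 12.98 with IL7, against 12.77, 12.89, 13.05 and 13.05 without it in DN4 cells (0.00 ± 0.07, adjusted p = 0.9919, 95% interval -0.15 to 0.14). The groups overlapped in both subsets. Foxm1 gave 10.20, 10.08, 10.37 and 10.13 with IL7, against 10.25, 10.08, 10.41 and 10.31 without it in DN3b cells (-0.07 ± 0.10, adjusted p = 0.7704, 95% interval -0.28 to 0.14). In DN4 cells it gave 10.32, 10.44, 10.56 and 10.38 with IL7, against 10.28, 10.15, 10.39 and 10.30 without it (0.14 ± 0.10, adjusted p = 0.6624, 95% interval -0.07 to 0.36). These arrays overlapped too, though Foxm1 was higher with IL7 in all 4 sorts of DN4 cells. Top2a gave 12.78, 12.83, 12.76 and 12.87 with IL7, against 12.66, 12.90, 12.57 and 12.89 without it in DN3b cells (0.05 ± 0.07, adjusted p = 0.7503, 95% interval -0.10 to 0.21), and 12.93, 12.86, 12.94 and 12.82 with IL7, against 12.73, 12.64, 12.86 and 12.78 without it in DN4 cells (0.13 ± 0.07, adjusted p = 0.5397, 95% interval -0.02 to 0.29). All 3 intervals of each subset lay within 0.5 of 0. Plk1 in DN3b cells gave 12.36, 12.21, 12.38 and 12.20 with IL7, against 12.19, 12.17, 12.40 and 12.08 without it (0.08 ± 0.06, adjusted p = 0.5645, 95% interval -0.06 to 0.22). Cdk1 in DN4 cells gave 11.42, 11.36, 11.38 and 11.31 with IL7, against 11.31, 11.40, 11.42 and 11.47 without it (-0.03 ± 0.09, adjusted p = 0.9484, 95% interval -0.22 to 0.15).

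The effects of IL7 were then compared between subsets. In DN4 cells the effect lay above that in DN3a cells for 5 of 40 genes and below it for 0, 12.5% against 2.63% of all genes higher and 2.73% lower (5.36% in all). One of them is Ube2c (0.63 ± 0.15, adjusted p = 0.02921), whose probe was not above background on any DN3a array, so that it has no measured effect there to compare. Of the 34 genes detected in DN3a cells, 4 passed. These were Kif23 (0.45 ± 0.10, adjusted p = 0.01811), Cenpa (0.42 ± 0.10, adjusted p = 0.02547), Nusap1 (0.39 ± 0.10, adjusted p = 0.04167) and Prc1 (0.36 ± 0.09, adjusted p = 0.04143). For Kif23 the difference was above 0 in each sort: IL7 gave 8.77, 8.28, 7.98 and 8.32 in DN3a cells against 9.04, 8.52, 8.35 and 8.70 without it, and 11.39, 11.33, 11.26 and 11.20 in DN4 cells against 11.03, 11.26, 11.20 and 11.18. Nusap1 gave 9.73, 8.86, 8.31 and 8.71 with IL7 in DN3a cells against 10.11, 9.49, 8.56 and 9.05 without it, and 12.96, 12.66, 12.47 and 12.49 in DN4 cells against 12.83, 12.70, 12.56 and 12.54. Prc1 gave 10.76, 10.54, 10.34 and 10.32 with IL7 in DN3a cells against 11.03, 10.81, 10.52 and 10.54, and 13.15, 13.11, 13.19 and 13.19 in DN4 cells against 13.08, 13.12, 13.01 and 12.93. Each of these was above 0 in 4 of 4 sorts. The Nusap1 call was lost in 9 of 14 alternatives, and its sign turned in 1 other, with the probe of largest F (-0.052). Kif23 and Cenpa lost theirs in 7 and Prc1 in 8.

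Between DN3b and DN3a cells, Cenpa alone of the 40 passed (0.45 ± 0.10, adjusted p = 0.04002), against 1.7% of all genes, 0.737% higher and 0.964% lower. This call was lost in 8 of 14 alternatives, among them no pairing of cultures and leaving out any 1 sort. With 1 sort left out, 16 to 24 of all 8820 genes were higher. With IL7 it was at 13.99, 14.09, 13.93 and 14.17 in DN3b cells, against 14.05, 14.22, 14.02 and 14.12 without it, and at 14.08, 14.20, 14.20 and 14.06 in DN4 cells, against 14.10, 14.30, 14.12 and 14.32. Between DN4 and DN3b cells 0 of 40 passed (limma), against 0.306% of all genes, 0.068% higher and 0.238% lower. At an unadjusted p under 0.05, 2 of the 40 were higher and 1 lower, where 427 and 408 of all 8820 genes were. Of the 5 differences between DN4 and DN3a cells, none stood without the pairing of cultures. Leaving out sort 1 left 1, and leaving out sort 2, 3 or 4 left 0. Of all 8820 genes, 53 were higher without the pairing, and 90, 76, 91 and 70 without sort 1, 2, 3 and 4. In the same comparison 2 of 41 further mitosis genes (Cenpk, 0.53, and Hjurp, 0.39) and 3 of 32 G1/S genes (Prim2, 0.52, Tk1, 0.47, and Rrm1, 0.44) were higher. These are 4.88% and 9.38%, against 2.63% of all genes.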

How the data were processed

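Total RNA (250 ng) from 24 cultures was hybridised to Illumina mouse beadchips, per the labels' protocols, and read with GenomeStudio 2011.1, per the submitters' processing notes. The authors deposited non-normalized probe intensity values with a detection p-value for each array, and a second table of processed log2 values. The log2 values deposited by the authors lay within 0.084 of quantile-normalized uncorrected intensities, all with a column median of 6.734, and each column matched its own array best. Of 25697 probes, 23978 had a gene symbol.

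Intensities were background-corrected from the detection p-values, quantile-normalized and set to log2 with neqc (limma 3.58.1 under R 4.3.3, offset 16). Probes detected at p under 0.05 on 4 or more arrays were kept (12939, of which 12158 were named), and 1 probe per gene (highest mean) left 8820 genes. IL7 effects came from 1 limma fit over 24 arrays with the 12 culture pairs as blocks, and differences of IL7 effects from contrasts in it. Untreated stages came from a fit over 12 arrays with the 4 sorts as blocks. Each fit used 1 spread per gene for all subsets, so errors may be too small where a subset varied more. Every p was adjusted by Benjamini-Hochberg over the 8820 genes, with a threshold of 0.05. The pairing comes from the sort number in the sample titles. Deviations from group means correlated at 0.238 or more in every culture pair, and all 24 arrays correlated best with an array of their own sort. Pairs of arrays with identical values numbered 0. Some arrays may be technical repeats, which the design text mentions but does not identify. The 4 sorts were taken as independent, as labelled, and p-values otherwise measure only the spread between these arrays.

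The genes and lists were chosen with earlier results of these data known. Array values were printed for up to 4 called genes with the largest change in each IL7 and untreated comparison, up to 2 called against the majority, the called differences of IL7 effects, and Cdk1, Ccnb1, Plk1, Aurkb, Birc5, Foxm1, Mki67 and Top2a, with up to 4 called genes of each other list. Alternatives were the normalization, the authors' values, the offset, the detection filter, the probe rule, the pairing, the arrays fitted and leaving out sorts. The procedure was tested on simulated data. Columns left unused numbered 0.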

Additional observations from a re-analysis of the deposited data

Results flagged for a closer look

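Of 240 sets of 4 sorts looked at, 9 held a sort set apart from the other 3, where chance gives about 5 in 100. With IL7 in DN3a cells, Bub1b changed by -0.042 in sort 1 against -0.26 to -0.23 in the others, and Mad2l1 by 0.12 in sort 1 against -0.26 to -0.21. Bub3 changed by 0.058 in sort 3 against 0.26 to 0.29, and Top2a by -0.43 in sort 4 against -0.17 to -0.15. With IL7 in DN3b cells Ncapd2 changed by -0.55 in sort 1 against -0.18 to -0.13, and with IL7 in DN4 cells Kif23 by 0.36 in sort 1 against 0.02 to 0.07. Between untreated DN4 and DN3b cells, Bub3 differed by -0.012 in sort 3 against 0.10 to 0.12, Mad2l1 by 0.33 in sort 1 against -0.07 to -0.01, and Anln by -0.37 in sort 4 against 0.01 to 0.08.

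The effect of IL7 differed between subsets for 5 genes, by the test of the difference itself (limma, adjusted p under 0.05). Between DN4 and DN3a cells, Ube2c differed by 0.63, with an effect of 0.58 in DN4 cells and a probe not above background on any DN3a array, so that the DN3a side is no measured effect. Kif23 differed by 0.45 (effects of 0.13 in DN4 and -0.32 in DN3a cells). Cenpa differed by 0.42 (-0.08 and -0.50), Nusap1 by 0.39 (-0.01 and -0.40) and Prc1 by 0.36 (0.12 and -0.24). Between DN3b and DN3a cells, Cenpa differed by 0.45 (-0.05 and -0.50).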

How the results depend on the processing

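The rise of mitosis genes in DN3b and DN4 over DN3a cells held at 38 or 39 genes in every alternative run, of 40 measured, or of 38 with detection on 12 arrays and 48 with no filter. Of DN4 over DN3b cells, 1 gene was higher with quantile normalization alone and with the authors' values. Of all 8820 genes, 226 and 231 were. The 13 genes lower with IL7 in DN3a cells became 2 with no replicate block, 7 with each subset fitted alone, 2 without sorts 1 and 3, 1 without sorts 2 and 3, and 5 to 9 when one sort was left out. Genes higher there numbered 0 to 1 when 1 sort was left out, where 577 to 643 of all 8820 genes were higher. In DN3b cells the 1 higher gene became 0 with quantile normalization, the authors' values, no filter, no replicate block and both omissions of a pair of sorts, and 0 to 1 with one sort left out. Of all 8820 genes, 291 to 328 were higher in DN3b cells with 1 sort left out. With the mean of probes or the probe of largest F, 1 gene was lower in DN3b cells, where 449 and 446 of all genes were. In DN4 cells the 1 higher gene became 0 with each subset alone and both omissions of a pair of sorts. With 1 sort left out it became 0 to 1, where 82 to 120 of all genes were higher.

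Between DN3b and DN3a effects, the 1 gene became 2 with quantile normalization, the authors' values, an offset of 50 and detection on 12 arrays. There 161, 170, 132 and, of 7660, 85 of all genes were higher, against 65 of 8820 in the main fit. The 1 gene became 0 with no filter, no replicate block and both omissions of a pair of sorts. It also became 0 with any 1 sort left out, where 16 to 24 of all 8820 genes were higher. For DN4 and DN3a effects, the 5 genes became 8 with quantile normalization, the authors' values and detection on 12 arrays. There 380, 384 and, of 7660, 265 of all genes were higher, against 232 of 8820 in the main fit. The 5 genes became 3 with no filter, where 187 of 16593 were higher. They became 0 with no replicate block and both omissions of a pair of sorts. With 1 sort left out they became 0 to 1, where 70 to 91 of all 8820 genes were higher. Nusap1 reversed with its probe of largest F, to 0.10 for IL7 in DN3a cells and -0.052 for the DN4 and DN3a difference. The cause was not tested. Leaving out sorts also leaves fewer samples. Dim probes limit Ccna2, Ube2c, Ttk, Pttg1 and, in DN3a cells, Cdc25c and Melk.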
